A study of Dorcoceras hygrometricum with 14 samples.

Results

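In the CHG context, where H is A, C or T, the authors' deposited table lists 1548 regions whose methylation differed between the bisulfite libraries headed BhB-4 and BhS-4 in Boea hygrometrica. Described here are the 538 of these that the table ties to at least 1 gene, through a coding sequence, another exon, or the 2 kb upstream or downstream of it. The other 1010 lie away from genes and serve only for comparison. Boea hygrometrica is a desiccation-tolerant rock plant that regenerates shoots from leaf pieces. DNA methylation was measured in 2 untreated samples of sterile-grown plants, expanding young leaves at 1 month and fully expanded mature leaves at 6 months. Each sample is 1 library of DNA mixed from 5 biological replicates of 30 leaf discs, and the labels give 44.49 Gb of clean bases for young and 41.19 Gb for mature leaves. Gene expression was measured in 12 other libraries, from 0.5 cm segments of young leaves of 1-month-old plants cultured for 0, 5, 10 or 15 days. The medium held the auxin 2,4-D and the cytokinin 6-BA, both at 0.1 mg/L. Each day has 3 biological replicates of about 30 leaf discs.

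No label ties the names BhB-4 and BhS-4 to a leaf age, so the libraries are called by these names throughout. The CG table of the same study heads its level columns with the titles of the mature and young leaf samples, and its values are given as such. A level is the methylation of a region on a scale from 0 to 1. With 1 library on each side there is no replicate error and no test of a level is given here. The coverage behind a level is unknown, so no counting interval can be set on it. Positions are 1-based on the scaffolds named in the table, whose genome build is not given in the sources used here.

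In plants, methylation at CHG sites is kept up by a chromomethylase, known in Arabidopsis as CMT3, which binds histone H3 methylated at lysine 9, while the histone methylase SUVH4 binds methylated DNA. The pair maintains the mark on transposons and other silent sequence. In bodies of expressed Arabidopsis genes CHG methylation is kept low, in part through the histone demethylase IBM1, and methylation there is mostly at CG sites.

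The gene-tied regions hold from 5 to 80 CHG sites, with a median of 6, over 50 to 1684 bases, with a median of 131. Regions of 5 sites, the fewest listed, make up 227 of the 538 (42.2%). The 171 coding regions and the 98 regions in other exons are separate sets, and all 184 coding or exon links to a gene of the expression table fall in the span of that gene. Of the rest, 157 lie upstream and 112 only downstream. Upstream links lie a median of 1032 bases from the gene and at most 1956, and downstream links a median of 961.5 and at most 1966. The regions name 377 genes. Of these, 233 are in the expression table and 108 carry a named protein. More than 1 gene shares the same region in 52 cases.

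Every region has a p of the authors, from 7.85e-12 to 0.0498, for its difference across sites within these libraries. It compares the libraries, not leaf ages. Among the regions with 5 sites the authors' p takes 8 different values with a lowest of 0.00794, which equals the smallest that a two-sided exact rank test of 5 sites against 5 can give. The lowest authors' p of regions with 6, 7 and 8 sites also equals that limit, at 0.00217, 0.000583 and 0.000155. No region has a level of 0.9 or more in both libraries, and the higher of the levels is never under 0.101. These limits belong to how the list was made, which is not given in the sources used here.

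Both directions were common. In BhB-4 292 regions (54.3%) had the higher level and in BhS-4 246 (45.7%), against 684 (67.7%) and 326 of the regions away from genes. The median level was 0.791 in BhB-4 and 0.741 in BhS-4 for gene-tied regions, and 0.908 and 0.841 for regions away from genes. A level of 0.5 or more in both libraries was seen in 58.0% of the gene-tied regions and in 90.0% of those away from genes. Gene-tied regions also had the wider differences, with a median of 0.160 in size against 0.136. In 92 of them (17.1%) the difference was at least 0.3, against 6.83% away from genes. In this group of 92 the balance was the other way round, with 37 regions higher in BhB-4 and 55 higher in BhS-4. In 21 regions it was at least 0.5, 7 higher in BhB-4 and 14 higher in BhS-4, while in 14 it was under 0.05. These are descriptions of a pair of libraries, and no test was made between gene-tied regions and the rest.

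The direction went with the level, mainly in coding, exon and downstream regions. Regions higher in BhB-4 were mostly strongly methylated in both, with medians of 0.932 in BhB-4 and 0.755 in BhS-4. Regions higher in BhS-4 had medians of 0.305 in BhB-4 and 0.692 in BhS-4. A level of 0.5 or more in both libraries was seen in 71.2% of regions higher in BhB-4 and 42.3% of those higher in BhS-4. In coding sequence these shares were 70.0% and 28.4%, in other exons 56.5% and 30.8%, and downstream 84.1% and 49.0%. They lay closer together upstream, at 71.0% and 64.1%, and away from genes, at 91.2% and 87.4%. Of the 76 regions with 0.5 between their levels, 46 had the higher level in BhS-4 and 30 in BhB-4. Levels at the ends of the scale were more common in BhB-4, where 64 regions were at 0 and 36 at 1, than in BhS-4, with 20 and 10. That is 18.6% of the regions in BhB-4 and 5.58% in BhS-4. The same held for all 1548 regions, with 74 at 0 and 133 at 1 in BhB-4 against 23 and 50 in BhS-4. The part that depth plays in these end values was not tested.

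**Figure D1:**
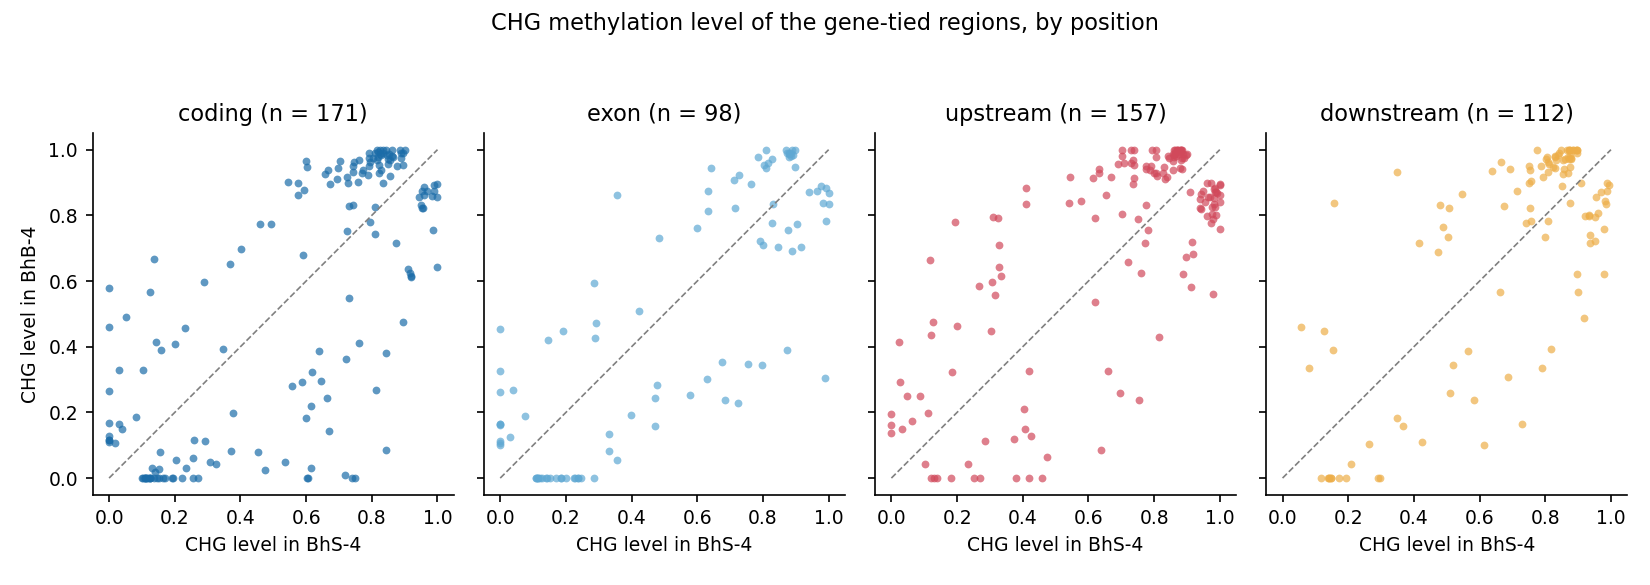
Level in BhB-4 (vertical) against level in BhS-4 (horizontal), on a scale from 0 to 1, for the 171 coding, 98 exon, 157 upstream and 112 downstream regions, 1 point each; the dashed line marks equal levels. Upstream and downstream regions crowd near the top right corner, while coding and exon regions also fill the bottom edge, where 45 of them have a level of 0 in BhB-4.

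Coding and exon regions spread over the whole scale. Coding regions had median levels of 0.644 in BhB-4 and 0.672 in BhS-4, and exon regions 0.437 and 0.615. Upstream regions lay higher, at 0.844 and 0.781, as did downstream regions, at 0.837 and 0.808. In coding sequence 90 regions were higher in BhB-4 and 81 in BhS-4. In other exons the counts were 46 and 52, upstream 93 and 64, and downstream 63 and 49. The 81 coding regions higher in BhS-4 had a median of 0.0840 in BhB-4 and 0.604 in BhS-4, and 25 of them were at 0 in BhB-4. The 90 coding regions higher in BhB-4 had medians of 0.926 and 0.742. A difference of at least 0.3 was listed for 34 coding regions (19.9%), 15 exon regions (15.3%), 25 upstream (15.9%) and 18 downstream (16.1%).

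The gene with the most regions was F511_00080, of the AMP-dependent synthetase and ligase family, whose enzymes activate organic acids with ATP (scaffold KQ990066.1, 630204 to 632019). All 9 of its regions, 7 in exons and 2 downstream, were lower in BhB-4, with a median difference of -0.45. The largest, of 8 sites at 631270 to 631369, had a level of 0.303 in BhB-4 and 0.990 in BhS-4. The next, of 12 sites from 631369 to 631736, had 0.301 and 0.629. At the other end of the gene, 5 sites at 630205 to 630278 had 0.345 and 0.797. The smallest difference was in 11 sites at 630793 to 630930, with 0.772 and 0.903. In the explants this gene was listed at 0.09, 0 and 1.11 FPKM (fragments per kilobase of transcript, scaled to the mapped fragments of the library) in the 3 day 0 libraries, and at 1, 0.27 and 7.77 at day 5, 0.93, 0.95 and 7.04 at day 10 and 1.11, 0.99 and 0.84 at day 15. Only replicate 3 of days 5 and 10 stood above the rest, and the gene was not called on any day. The downstream region at 629231 to 629294, with 0.0993 in BhB-4 and 0.612 in BhS-4, also lies within 2 kb downstream of F511_00079. That gene has the product name phytoene synthase but its best protein match is a subunit of the transcription factor TFIIH.

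F511_02520, a hypothetical protein on scaffold KV010635.1 (633887 to 636190), had 4 coding regions with almost no CHG methylation in BhB-4. Their levels were 0, 0, 0.010 and 0 in BhB-4 and 0.606, 0.748, 0.720 and 0.738 in BhS-4. The third, with 19 sites over 613 bases, is the longest of them. Downstream of the gene a region of 8 sites at 632111 to 632403 had 0.345 and 0.518, and one of 5 sites at 631935 to 632054 had 0.903 and 0.756, the reverse order. The gene was expressed at 18.16, 18.15 and 19.85 FPKM at day 0, so leaf explants transcribe it.

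The region with the most sites lies in coding sequence of F511_03863, which the expression table does not list. Its 80 sites over 1684 bases (scaffold KQ988646.1, 316978 to 318661) had a level of 0.0840 in BhB-4 and 0.844 in BhS-4, the widest difference of all gene-tied regions. The other 4 regions of this gene went the other way, from 0.877 to 1 in BhB-4 and from 0.592 to 0.896 in BhS-4. The lowest authors' p, 7.85e-12, belongs to a region of 35 sites over 1015 bases in coding sequence of F511_00122, whose best protein match has CBS domains, a small fold that often binds adenosine nucleotides (KQ990066.1, 874910 to 875924). It had 0.268 in BhB-4 and 0.814 in BhS-4. F511_00122 was expressed at 62.72, 65.83 and 57.22 FPKM at day 0.

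Other genes held regions of both directions. F511_00177 is named for the Gag-Pol polyprotein of the retrotransposon Ty3-G, known from yeast, although its best protein match is a hypothetical protein (KQ997936.1, 323616 to 337518). Its 4 coding regions between 325137 and 328202 were at 0 in BhB-4 and from 0.164 to 0.270 in BhS-4. The 4 between 331060 and 335125 were from 0.945 to 0.978 in BhB-4 and from 0.698 to 0.865 in BhS-4. BhB-4 was thus the more extreme library at each end. In F511_00186, diphthamide biosynthesis protein 2, which takes part in making the modified histidine of elongation factor 2, 8 coding regions lay within 497051 to 500903 of the same scaffold. In BhB-4 3 of them were higher and 5 lower, with differences between 0.104 and 0.314 in size. F511_03011, matched to the RNA helicase DHX35, had 6 regions of which 5 were lower in BhB-4, among them 13 sites in coding sequence with 0.0498 and 0.536 (KQ987269.1, 104772 to 105163). In F511_00007, a putative inactive receptor kinase, all 5 coding regions were higher in BhB-4, from 0.668 to 0.970 against 0.137 to 0.849 (KQ990066.1, 88589 to 95787).

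**Figure D2:**
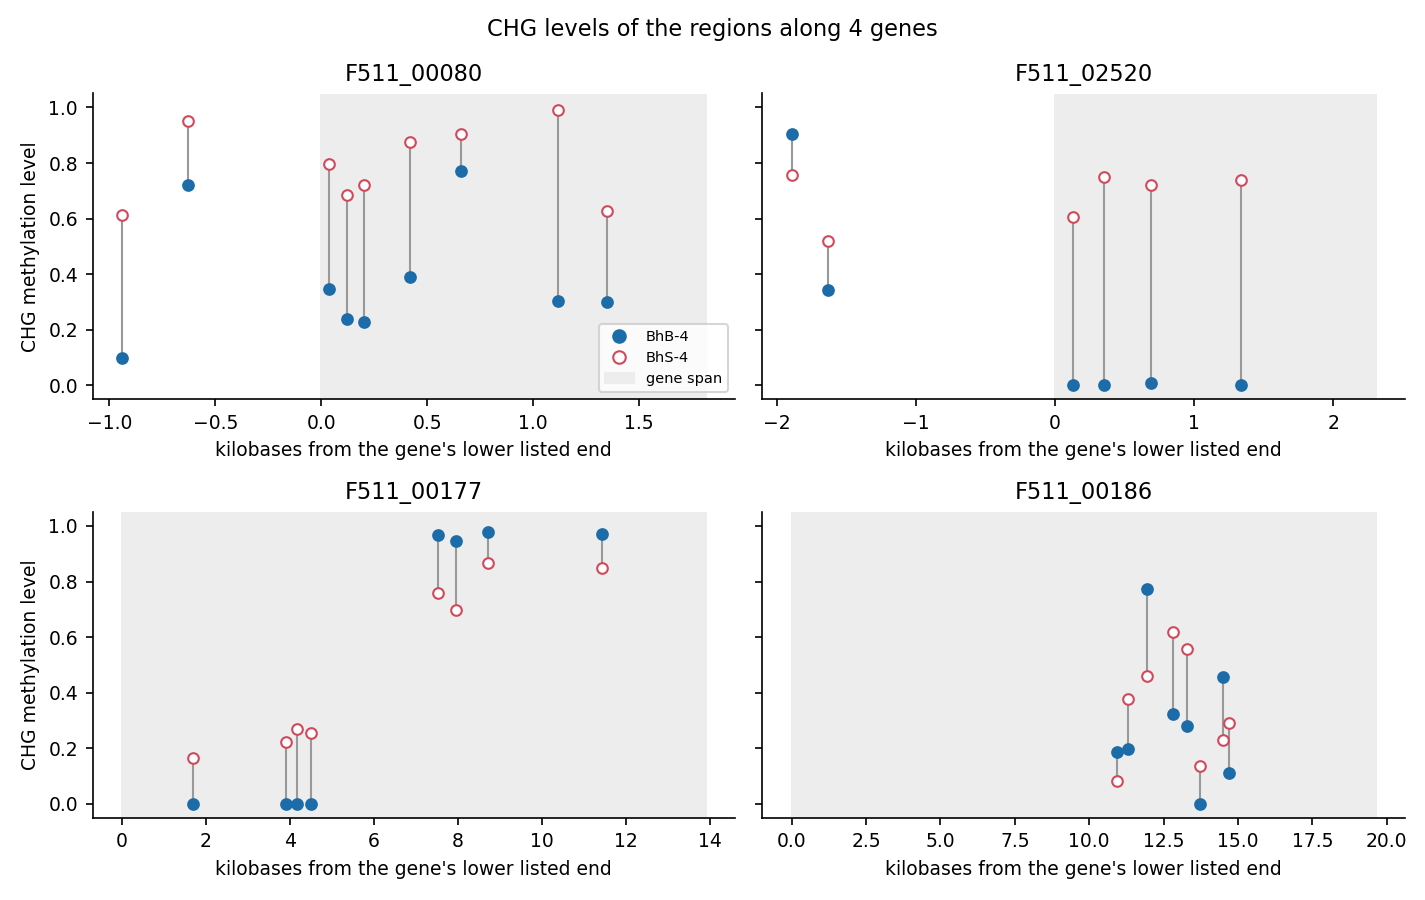
CHG level (vertical, 0 to 1) of each region in BhB-4 (filled) and BhS-4 (open), joined by a line, at its distance in kilobases from the lower listed end of the gene, with the gene span in grey. In F511_00080 BhS-4 is higher in all 9 regions, in F511_02520 the 4 coding regions lie at or near 0 in BhB-4, in F511_00177 the order turns between the low and the high regions, and in F511_00186 both orders alternate.

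Across all genes, 128 had 2 or more regions. In 59 of them all regions pointed the same way, 41 with BhB-4 higher and 18 with BhS-4 higher, and in 69 both directions were present. Among neighbouring gene-tied regions within 1000 bases of each other, 71 of 113 pairs (62.8%) had the same direction, and 8 of the 9 pairs that abut. For scale, 54.3% of all gene-tied regions were higher in BhB-4 and 45.7% in BhS-4, so unrelated regions would also often share a direction. Neighbours and regions of 1 gene share sequence and are not independent.

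Among regions within gene bodies that tie to a named protein, the widest one higher in BhB-4 lay in F511_01598, listed as inositol-tetrakisphosphate 1-kinase 2-like but matched to a hypothetical protein. Its 7 sites at 734128 to 734484 of scaffold KV018098.1 had 0.580 in BhB-4 and 0 in BhS-4. The 10 sites that follow, to 734804, had 0.664 and 0.117. Both lie within 2 kb upstream of F511_01599, listed as peroxidase 64 and also matched to a hypothetical protein. In F511_00004, an ABC transporter F family member 5-like protein, 5 sites had 0.459 and 0. F511_00807, listed as synaptotagmin, a membrane protein with calcium-binding domains, had 6 sites at 0.454 and 0. In the other direction, F511_01604, listed as a CAP-Gly domain protein but matched to myosin-14, had 6 sites at 0 in BhB-4 and 0.604 in BhS-4. F511_00228, the Golgi membrane protein ECHIDNA, needed for secretion during cell elongation in Arabidopsis, had 5 sites at 0.0316 and 0.615. F511_03062, listed as paladin, had 6 sites at 0.144 and 0.670.

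Upstream of genes, the widest region lower in BhB-4 that ties to a named protein is shared by F511_00902 and F511_00903. Its 7 sites (scaffold KV009364.1, 868018 to 868100) had 0 in BhB-4 and 0.418 in BhS-4. F511_00902 is somatic embryogenesis receptor kinase 2-like, of a family of co-receptors first known from embryogenic carrot cells, and its listed end is 1612 bases away. F511_00903, a mitochondrial calcium uptake protein, begins 1030 bases away on the other side. F511_00902 was at 240.72, 392.8 and 147.09 FPKM on day 0 and at 230.09, 394.08 and 103.02 at day 15. Its groups overlapped on each later day, with log2 fold changes of 0.03 (SE 0.48, limma adjusted p = 0.981), -0.23 (0.813) and -0.19 (0.822) at days 5, 10 and 15. Upstream of F511_02506, 4-coumarate--CoA ligase 2-like, an enzyme of phenylpropanoid synthesis, 7 sites had 0.431 in BhB-4 and 0.816 in BhS-4 (KV010635.1, 560608 to 560895). Higher in BhB-4 were 5 sites upstream of F511_02511, a putative cinnamyl alcohol dehydrogenase, which makes lignin precursors, at 0.711 and 0.328. In F511_00082, beta-catenin-like protein 1, 7 upstream sites had 0.916 and 0.544.

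The widest region higher in BhB-4 lies downstream of F511_07107, a gene that falls outside the rule for named genes and was chosen after its values were seen. Its best protein match is MPP10, a protein of the complex that processes ribosomal RNA. The 23 sites at 560701 to 561075 of scaffold KQ991163.1 had 0.837 in BhB-4 and 0.156 in BhS-4. The gene was expressed at 27.15, 24.82 and 26.83 FPKM at day 0. Downstream of F511_03128, a GDSL esterase or lipase, 6 sites had 0.460 and 0.0574. Downstream of F511_00240, an aspartic protein-like gene, 6 sites had 0 and 0.289. F511_04119, the chloroplast glutamine synthetase that assimilates ammonium in leaves, had 10 downstream sites at 0.157 and 0.367 (KV015569.1, 367018 to 367686).

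Of the 1346 genes of the expression table on these 18 scaffolds, 233 (17.3%) had a gene-tied CHG region. Gene lists were text patterns on the protein descriptions. Of 9 transposon-derived genes on the scaffolds, 5 (55.6%) had a region, with 12 regions in all, 6 in each direction. Most of these are the coding regions of F511_00177 described above, which went both ways. A Gag protease polyprotein gene, F511_01683, had 0.824 in BhB-4 and 0.986 in BhS-4 upstream, and F511_07160, a BED zinc finger gene of the RICESLEEPER kind, derived from hAT transposases, had 0.945 and 0.808 in an exon. Receptors and protein kinases had 15 of 93 genes (16.1%) with 28 regions, 13 higher in BhB-4 and 15 higher in BhS-4. Some members are kinases of small molecules, such as F511_01598. The cell cycle list had 5 of 16 genes (31.2%) and 6 regions. Among them, F511_01565, phragmoplast orienting kinesin 2, which in Arabidopsis helps to place the new cell wall, had 0.110 and 0 in coding sequence. The cyclin-dependent kinases F511_00020 and F511_00021 share 2 regions between them, with 0.209 and 0.403 in one and 0.436 and 0.122 in the other. These kinases belong to the CDKC class, which acts in transcription in Arabidopsis rather than in the division cycle.

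Transcription factors had 6 of 54 genes (11.1%). Upstream of F511_00074, NAC domain-containing protein 86, which directs the loss of nuclei in Arabidopsis sieve elements, abutting regions had 0.421 and 0.147, then 0.730 and 0.484. Upstream of F511_07134, a CONSTANS-like zinc finger protein, 18 sites had 0.682 and 0.917. Upstream of F511_00788, an ethylene responsive factor, 5 sites had 0.960 and 0.729. In F511_00158, matched to the auxin response repressor IAA9, 26 exon sites had 0.243 and 0.470 and 8 exon sites 0.426 and 0.288. It was the only 1 of 11 auxin and cytokinin genes with a region. The other hormone list had 1 of 14, the chromatin list 1 of 9 and the stress list 1 of 4, which is F511_01599. No region was tied to the 5 regeneration regulators, 4 photosynthesis genes, 8 disease resistance genes or the 1 gene of the CHG methylation list on these scaffolds. The counts are small, so the lists are given as counts only.

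The CG table, whose columns are named for mature and young leaves, holds regions at some of the same places. Of the gene-tied CHG regions, 82 (15.2%) overlap a CG region by at least 1 base, against 10.3% of those away from genes. In 72 of the 82 the CHG level was higher in BhB-4 where the CG level was higher in mature leaves, or lower in both. All 15 overlapping downstream regions were of this kind, 25 of 27 upstream, 18 of 20 in exons and 14 of 20 in coding sequence. Of the 34 overlapping regions with a CHG difference of at least 0.3, 32 were. Away from genes 98 of 104 overlaps (94.2%) were of this kind, against 87.8% of the 82 gene-tied ones. Neighbouring CHG regions can share a CG region, and the 82 overlaps rest on 70 CG regions. The regions of both tables were chosen for a difference, so these counts describe the lists, and they were not used to give BhB-4 or BhS-4 a leaf age.

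Some of the widest CHG differences lay over wide CG differences. Each CG level here is that of the overlapping CG region, which need not share all bases with the CHG region. Over the 80-site region of F511_03863 the CG level was 0.050 in mature and 0.951 in young leaves. For the region upstream of F511_00902 it was 0 in mature and 0.835 in young leaves, beside CHG levels of 0 in BhB-4 and 0.418 in BhS-4. Downstream of F511_07107 it was 0.878 and 0.195, and over the 35-site region of F511_00122 0.405 and 0.938. In F511_02520 CG regions share 95, 266 and 84 bases with 3 of the 4 coding regions. Their CG levels were 0.387, 0.452 and 0.175 in mature and 0.936, 0.939 and 0.710 in young leaves. A CG region of 42 sites in F511_00080, overlapping 5 of its CHG regions, had 0.554 and 0.974.

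Of the 10 overlaps with opposite directions, 6 had the same form, and all 6 lay in coding sequence or other exons. Their CHG level was 0 in BhB-4 and from 0.111 to 0.170 in BhS-4. The overlapping CG regions, which shared from 19 to 183 bases with them, had other levels. These were from 0.840 to 0.989 in mature and from 0.352 to 0.868 in young leaves. Examples, chosen after their values were seen, are F511_00090, the Golgi protein GRIP, with CHG levels of 0 and 0.111 and CG levels of 0.989 and 0.794, and F511_01638, an acylamino-acid-releasing enzyme, with 0 and 0.124 and then 0.982 and 0.541. CHH regions of either strand overlapped 60 gene-tied CHG regions (11.2%) and 7.33% of those away from genes, and any other context overlapped 126 (23.4%).

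**Figure D3:**
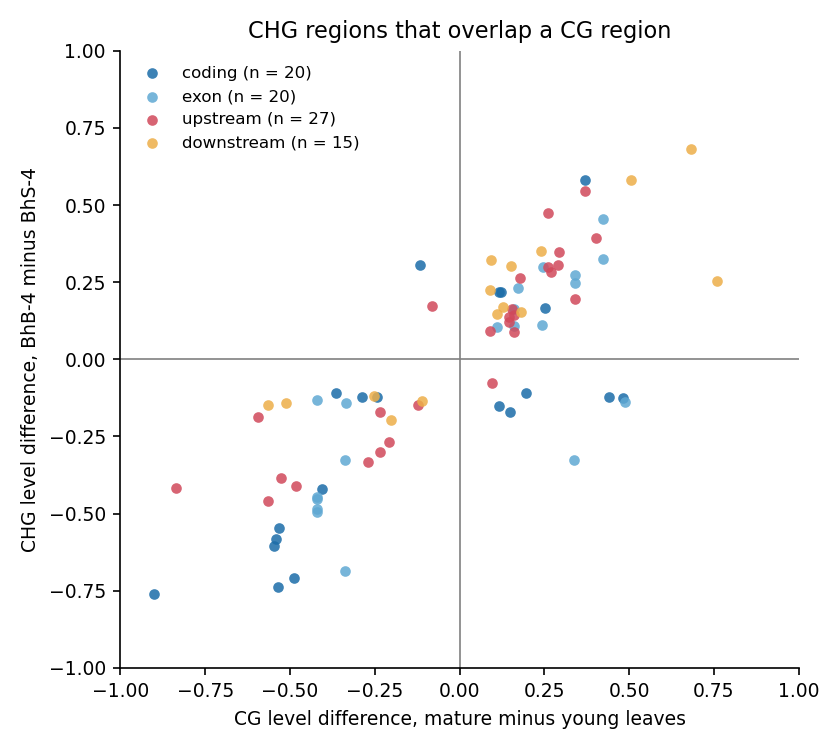
CHG level difference of BhB-4 minus BhS-4 (vertical) against the CG level difference of mature minus young leaves (horizontal) for the 82 gene-tied CHG regions that overlap a CG region, coloured by position. In 72 regions both differences have the same sign, and of the other 10 most lie at the lower right, with a negative CHG and a positive CG difference.

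Day 0 expression, before culture on the medium, was set beside the CHG level of the gene body. Genes with a coding or exon region at 0.5 or more in both libraries had a median of 2.03 FPKM (35 genes, quartiles 0.0317 and 13.0). Genes with such a region under 0.5 in both had a median of 12.3 (68 genes, quartiles 5.85 and 29.9). Between them lay the 26 genes with a region on both sides of 0.5, at 8.42. Of these genes 60%, 92.6% and 80.8% had at least 1 FPKM in at least 3 libraries. A gene with several regions can be in more than 1 set. For upstream regions the order was not the same, with 8.55 FPKM for 45 genes at 0.5 or more and 6.12 for 26 genes under 0.5. All tied genes had a median of 7.55 and the other 1113 genes of these scaffolds 14.7. Of the 88 genes with a highly methylated body region, 35 are in the expression table, against 68 of 71 with a low one. The expression table lists no gene at 0 in all 12 libraries. These sets were formed from levels in pooled leaf DNA and read in other samples, and they are described without a test.

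**Figure D4:**
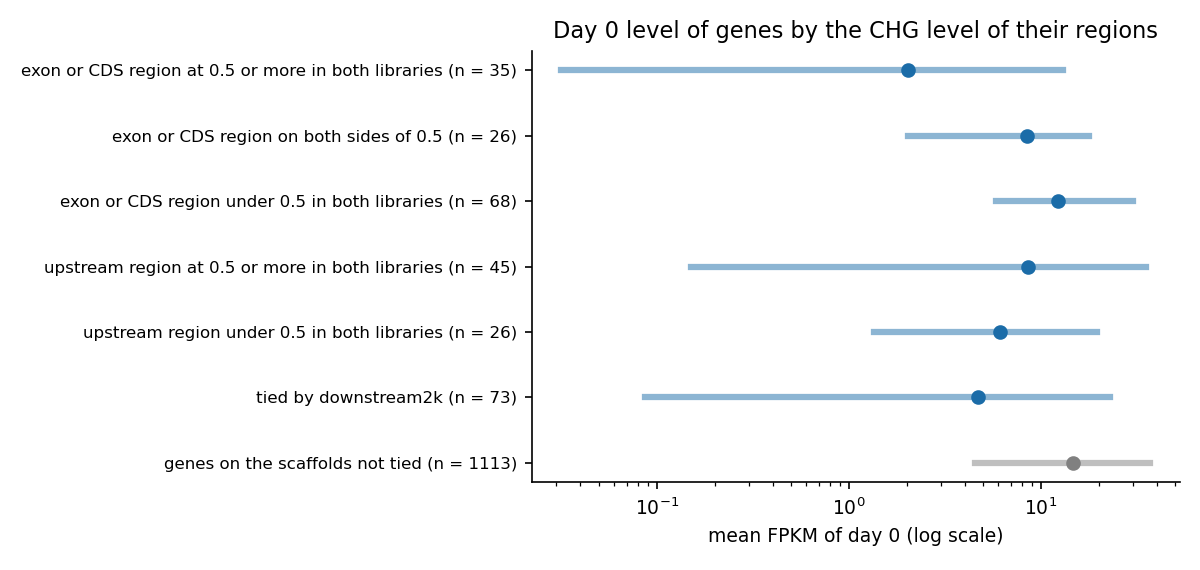
Mean FPKM of the 3 day 0 libraries on a log scale, as the median (point) and quartiles (bar) over genes, by the CHG level of the region tied to them, with the number of genes in the expression table. Genes with a highly methylated coding or exon region have the lowest median, 2.03 FPKM, and the 1113 genes of the same scaffolds with no tied region the highest, 14.7.

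Genes tied to CHG regions were then followed through culture. Of the 377 genes, 171 passed the filter on low values and were tested. Calls needed an adjusted p from limma below 0.05 together with a log2 fold change from day 0, on the scale of FPKM plus 1, of 1 or more in size. At day 5, 11 tied genes (6.43%) were called, 1 higher and 10 lower, where 6.61% of all 17288 tested genes were called (3.13% higher and 3.48% lower). At day 10 it was 9 (5.26%), 1 higher and 8 lower, against 4.49% of all genes (2.24% higher and 2.26% lower). At day 15 it was 16 (9.36%), 4 higher and 12 lower, against 9.02% (4.63% higher and 4.38% lower). The total shares were near those of all genes on each day. By direction they were not as near, with 5.85%, 4.68% and 7.02% of the tied genes lower at days 5, 10 and 15 and 0.585%, 0.585% and 2.34% higher. Of the 977 tested genes on the same scaffolds with no tied region, 4.09%, 2.46% and 4.4% were lower and 3.07%, 1.43% and 4.71% higher. These differences in share were not tested. With median-ratio rescaling of the libraries, 0 of 8 called genes were higher at day 10 and 2 of 14 at day 15. The median log2 fold changes of the tied genes were 0.03, 0.12 and 0.20, and those of all genes 0.14, 0.15 and 0.21. The 3 comparisons share the day 0 libraries.

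Leaving out 1 library moved these counts more than 1.5 times in several cases. At day 5 the count was 3 without day 0 replicate 1 and 6 without day 0 replicate 2. It was 4, 3 and 6 without day 5 replicates 1, 2 and 3 in turn. At day 10 the count was 2 without day 0 replicate 1, 1 without day 0 replicate 2, 1 without day 10 replicate 2, 3 without day 10 replicate 3, and 1 when fitted to the 6 libraries of days 0 and 10 alone. At day 15 it was 7 without day 0 replicate 1 and 10 without day 15 replicate 2 or 3. The share of all genes called moved as well in most of these fits. In the same order it was 2.59%, 3.11%, 2.62%, 2.44% and 6.77% at day 5. For day 10 it was 1.16%, 1.68%, 1.74%, 4.04% and 0.827%, and for day 15 4.35%, 5.37% and 5.96%.

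F511_01558, HMBPP reductase, the last enzyme of the plastid pathway to isoprenoids, had the smallest adjusted p of the tied genes on each day. It stood at 218.13, 174.56 and 325.1 FPKM on day 0 and 44.23, 39.97 and 57.58 at day 5. At day 10 the values were 76.63, 52.44 and 47.08, and at day 15 74.94, 51.48 and 57.74. All later libraries lay below those of day 0, with log2 fold changes of -2.28, -1.99 and -1.92 (SE 0.26 for each, adjusted p = 0.00184, 0.00377 and 0.00225). Its call held in all 18 alternatives on each of the 3 days. The tied region lies 959 bases upstream, with 5 sites at 0.870 in BhB-4 and 0.986 in BhS-4.

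F511_03005, a vignain-like cysteine protease matched to the senescence-specific SAG39, stood at 5.98, 6.45 and 4.15 FPKM on day 0 and 0.17, 0 and 0.18 at day 5. At day 15 it had 0.35, 0.65 and 0.34. It fell by 2.53 at day 5 and by 2.16 at day 15 on the log2 scale (SE 0.39, adjusted p = 0.00502 and 0.00683). Its coding and exon regions had low levels, 0.151 and 0.0389 in one and 0.189 and 0.0756 in the other. The chloroplast glutamine synthetase F511_04119 fell from 728.24, 598.69 and 607.38 FPKM at day 0 to 139.67, 64.18 and 42.45 at day 15 (-3.13, SE 0.51, adjusted p = 0.00488). 4-coumarate--CoA ligase F511_02506 stood at 42.83, 32.23 and 44.84 FPKM on day 0 and 14.64, 10.51 and 16 at day 15 (-1.48, SE 0.29, adjusted p = 0.00948). The receptor kinase F511_00007 had 182.37, 157.53 and 166.58 at day 0 and 72.34, 62.53 and 80.8 at day 5 (-1.23, SE 0.24, adjusted p = 0.0131). Leaving out day 0 replicate 1 or day 5 replicate 2 ended that call, with adjusted p = 0.0525 and 0.0568. F511_00199, a subunit of the ARP2/3 complex that branches actin filaments, had 177.66, 152.18 and 159.75 at day 0 and 90.2, 77.35 and 50.25 at day 10 (-1.20, SE 0.28, adjusted p = 0.0291), a call lost in 6 of 18 alternatives. The Gag-Pol gene F511_00177 fell from 84.97, 82.48 and 91.77 to 44.65, 30.25 and 27.41 FPKM at day 15 (-1.35, SE 0.31, adjusted p = 0.0154). That call was lost without day 0 replicate 1, day 15 replicate 2 or day 15 replicate 3 (adjusted p = 0.0528, 0.0553 and 0.0541).

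Genes of the photosynthesis list, taken as a mark of leaf mesophyll, were called lower on the same days. The list was made by text patterns and takes in some other genes. Among these are F511_14375, matched to a uridine-cytidine kinase, and F511_25519, matched to a cytoplasmic epimerase. Of all 17288 tested genes, 3.48%, 2.26% and 4.38% were called lower at days 5, 10 and 15. Of the 73 genes of the list that were tested, 21, 9 and 37 were called lower on those days and 0 higher. At an unadjusted p under 0.05 limma gave 2, 2 and 2 of them higher. Their summed level was 107047 to 151183 FPKM at day 0, 36995 to 50962 at day 5, 30969 to 111961 at day 10 and 20729 to 62308 at day 15, and none of the 79 was at 0 in all 12 libraries. The part of mesophyll content in the fall of the tied genes was not tested. In these bulk samples fewer cells of a type and less RNA per cell cannot be told apart.

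Fewer tied genes were called higher than lower. F511_01650, matched to an ACC oxidase homolog, a family related to the enzyme that makes ethylene, was higher on all 3 days. It had 2.19, 4.78 and 5.32 FPKM at day 0, 14.39, 10.41 and 19.47 at day 5, 8.86, 12.57 and 14.21 at day 10, and 7.68, 18.9 and 16.34 at day 15. No later library overlapped day 0, and the log2 fold changes were 1.65, 1.38 and 1.56 (SE 0.37, adjusted p = 0.0199, 0.0477 and 0.0187). The calls were lost in 4, 13 and 4 of 18 alternatives. Its coding regions of 14 and 6 sites had 0.626 and 0.477 in BhB-4 and 0.915 and 0.894 in BhS-4. F511_00395, a glycine-rich cell wall protein, rose from 0.43, 1.25 and 0 FPKM at day 0 to 16.62, 20.39 and 27.93 at day 15 (3.91, SE 0.73, adjusted p = 0.00789), a call that held in all 18 alternatives. It has 3 upstream regions, with 0.581, 0.942 and 0.988 in BhB-4 and 0.912, 0.775 and 0.90 in BhS-4. F511_00173, matched to the chloroplast metallopeptidase EGY3, had 24.48, 16.32 and 27.1 at day 0 and 43.93, 61.27 and 48.04 at day 15 (1.16, SE 0.28, adjusted p = 0.0192). Its upstream region, 475 bases away, had 0.781 in BhB-4 and 0.195 in BhS-4, and the call was lost in 4 of 18 alternatives. F511_01525, a hypothetical protein, rose at day 15 (1.81, SE 0.54, adjusted p = 0.0428), with a day 15 replicate 3 of 157.93 FPKM beside 58.44 and 59.41, and this call was lost in 10 of 18 alternatives.

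**Figure D5:**
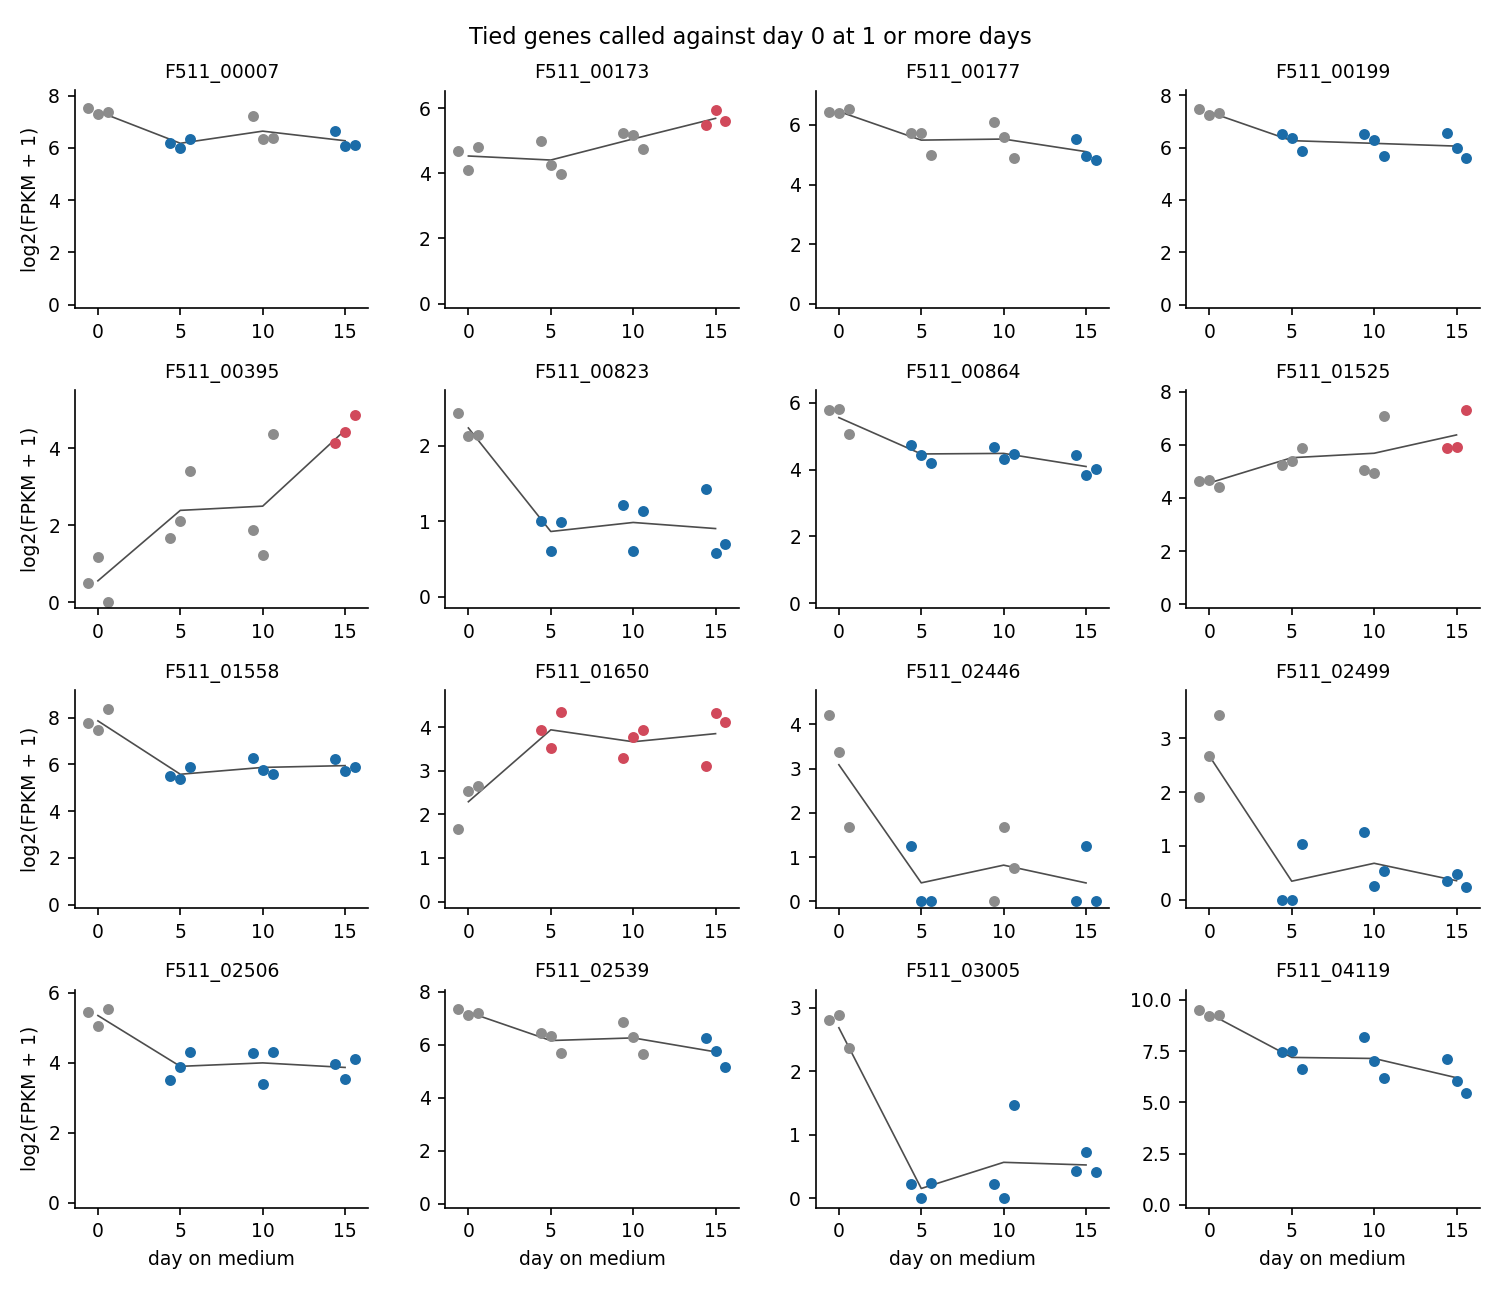
log2(FPKM + 1) in each of the 3 libraries of days 0, 5, 10 and 15 (points) and their mean (line) for the 16 tied genes called on at least 1 day; blue marks a day called lower than day 0, red a day called higher, grey the rest. In 12 genes the called days lie below day 0 and in 4 above.

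Genes linked to CHG methylation were taken from a list over all scaffolds, made by text patterns on the protein descriptions. The list is broad and takes in genes that need not write or remove this mark themselves. Among these are DNA methyltransferase 1-like genes, SUVH1-like and SUVH9 genes, the remodeller DDM1 and a putative DNA glycosylase. The expression table holds 28 genes of the list. Of these, 25 were tested and limma called 0 on each day, with 1 higher and 1 lower at an unadjusted p under 0.05 at day 5, 1 and 0 at day 10, and 1 and 0 at day 15. The share of all genes called was 6.61%, 4.49% and 9.02%, which is few genes in a list of this size. The SUVH9 gene F511_09023, of a family that in Arabidopsis recruits RNA polymerase V to methylated DNA, stood at 5.19, 7.14 and 9.32 FPKM on day 0 and 12.19, 12.07 and 14.71 at day 15. These groups do not overlap, and the change (0.79, SE 0.22, adjusted p = 0.032) missed only the fold minimum, while with 1 library left out its adjusted p reached 0.12. The chromomethylase CMT3 gene F511_35071 stood at 20.53, 18.14 and 38.79 FPKM on day 0 and 7.54, 11.68 and 20.26 at day 5, groups that overlap (-0.94, SE 0.46, adjusted p = 0.198). The SUVH4 gene F511_18392 had 10.31, 10.97 and 14.94 at day 0 and 4.64, 6.69 and 9.56 at day 5, which do not overlap (-0.75, SE 0.28, adjusted p = 0.102). CMT2, F511_27524, which methylates CHH and CHG sites in heterochromatin of Arabidopsis, had 12.04, 10.27 and 10.48 at day 0 and 8.09, 9.02 and 14.03 at day 5. DDM1, F511_23570, the chromatin remodeller that opens heterochromatin to these enzymes, had 8.57, 7 and 17.34 at day 0 and 15.3, 15.21 and 11.36 at day 15. A list for RNA-directed DNA methylation, also made by text patterns, shares the DRM2-like gene F511_01452 with the CHG methylation list. It also takes in F511_17310, named dicer-like protein 1-like but matched to an uncharacterized protein. Of its 24 genes 17 were tested, and 0 were called on each day. At an unadjusted p under 0.05 limma gave 1, 1 and 3 of the 17 higher and 0, 0 and 1 lower. Among them F511_25815, matched to subunit 5A of RNA polymerase V, stood at 9.5, 10.35 and 10.94 FPKM on day 0 and 16.65, 25.52 and 16.45 at day 15 (0.84, SE 0.25, adjusted p = 0.0451), also under the fold minimum, and with 1 library left out its adjusted p reached 0.148. F511_09023 and F511_25815 were picked after their values were seen.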

How the data were processed

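CHG, CG and CHH regions were taken as deposited, with levels, p-values and gene ties as the authors' deposited tables give them. Levels in the deposited CG table are fractions between 0 and 1. The CHG levels run from 0 to 1, but no label names their libraries. The 4 level columns of the CHH tables were not used. Per the file headers, expression is in FPKM. Tools listed in the submitters' processing notes, with no role, are BSMAP, Bowtie2 2.2.5, HISAT and StringTie 1.0.4. The region caller, its thresholds, coverage and genome build are not given in the sources used here, and read counts were not used, so depth is unknown and no interval is given. Bisulfite libraries were made from 120 to 170 bp fragments with 18 PCR cycles per the labels.

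Regions were joined to genes by locus tag and to other contexts by an overlap of at least 1 base (Python 3.11.15, pandas 2.3.3). FPKM plus 1 was put on the log2 scale, without further scaling, for the 17288 of 24110 genes that reached 1 FPKM in 3 or more libraries. A limma 3.58.1 model (R 4.3.3, trend and robust variances, statmod 1.5.0) gave each day its own mean across the 12 libraries, two-sided, with Benjamini-Hochberg adjustment over all genes tested. Pseudocounts lessen the fold changes of low genes. The fit was tested on simulated data first. Between 15531 and 16496 genes per library reached 1 FPKM.

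Regions were named by rule: within each position class the 4 widest differences in each direction with a named protein, 1 per gene, then regions of listed genes and genes with 2 or more regions. Genes were named by expression when called, up to 6 per day and direction by smallest adjusted p. The expression of F511_00177 and other multi-region genes is given because a region names them. The text names a part of these. Members, gene lists and tests were chosen with earlier results of these data known.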

Additional observations from a re-analysis of the deposited data

How the results depend on the processing

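The count of gene-tied regions, 538, of which 292 were higher in BhB-4, was smaller under each narrower choice. With an authors' p under 0.001 it was 59 and 22, with a difference of at least 0.3 it was 92 and 37, and with at least 10 sites 97 and 55. It was 269 and 136 for coding or exon ties and 166 and 101 for upstream ties. The median difference of BhB-4 minus BhS-4, 0.082, turned to -0.126 with an authors' p under 0.001 and to -0.332 with a difference of at least 0.3. It was 0.016 for coding or exon ties and 0.111 for upstream ties. The cause was not tested. Requiring an overlap of 0.5 of the region kept 60 of the 82 CG overlaps.

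The counts of tied genes called, 11, 9 and 16 at days 5, 10 and 15, were 23, 15 and 39 with no fold minimum. The share of all genes with no fold minimum is not given here. With 1 library left out the counts ran from 3 to 14, from 1 to 10 and from 7 to 18. The shares of all genes then ran from 2.44% to 8.23%, from 1.16% to 6.85% and from 4.35% to 11%. On only the 6 libraries compared the day 10 count was 1 (0.827% of all genes). On days 5 and 15 it was 11 and 14 (6.37% and 8.34% of all genes). Median-ratio rescaling, which shifted the all-gene median log2 change by -0.14, -0.15 and -0.19, gave 12, 8 and 14. With it 6.27%, 4.36% and 8.66% of all genes were called. Of the 36 calls behind these counts, 0 changed direction and 26 were lost in at least 1 of the expression alternatives. The log2 fold change of F511_00902, called on no day, took either sign. At day 5 it was -0.13 with rescaling and -0.40 on replicates 1 and 2 only. With 1 library left out it ran from -0.32 to 0.38 at day 5, from -0.58 to 0.12 at day 10 and from -0.64 to 0.32 at day 15. With the replicate block the counts were 12, 10 and 21, of which 1, 1 and 7 were higher. The block called 8.68%, 6.46% and 11.1% of all genes. No label gives the replicate numbers a shared batch. Libraries were correlated after the mean of each gene on each day was taken off. Of the 18 correlations between same-numbered libraries, 14 were over 0.1, and all 18 ran from -0.011 to 0.656. As not all were over 0.1, the numbers are not taken to pair the samples. The same number still correlated best in 23 of 36 comparisons, and in 4 of 12 libraries on every other day. On each day replicate 1 had the most genes listed at 0 (5661 to 6054) and replicate 3 the fewest (5028 to 5367). These are hints of structure from the data, not from the design. The depth behind levels and FPKM is unknown, so what it limits could not be set.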

Other observations

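Several long genes with an assigned function held several CHG regions of unlike level. F511_00643, the kinase ATM, which signals DNA breaks, had coding regions at 0 in BhB-4 and 0.103 in BhS-4, at 0.950 and 0.793, and at 0.0799 and 0.452, at 340033 to 340181, 341364 to 341564 and 342587 to 342853 of scaffold KV005017.1. F511_00597, formin-like protein 20, of a family that nucleates actin filaments, had 14 exon sites at 0.347 and 0.753 at 68075 to 68220 of that scaffold, and 6 sites at 0.595 and 0.286 at 69511 to 69567. F511_00181, the blue light receptor phototropin-2, had coding regions at 0.408 and 0.202 and at 0.115 and 0.258, at 417786 to 417882 and 417929 to 418107 of scaffold KQ997936.1. All 3 regions upstream of F511_00217, a pectinesterase, which modifies cell wall pectin, were higher in BhB-4, at 0.294, 0.138 and 0.151 against 0.0269, 0 and 0.0311. These genes fall within the rule for named genes.

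Some genes were named by both CHG and CG regions. Of the 377 genes tied to CHG regions, 222 (58.9%) were also tied to a CG region, which is 25.1% of the 886 genes tied to CG regions. The share of all genes on these scaffolds tied to a CG region is not given here. Whether 58.9% differs from that share was not tested.

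Scaffolds differed in direction. On KQ986804.1 15 of 16 gene-tied regions were higher in BhB-4, and on KV010635.1 10 of 30 were. The share of CHG regions tied to a gene ran from 15.3% on KV008068.1, with 4 genes in the expression table, to 81.1% on KQ987269.1, with 173.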
